A study of Mus musculus with 2 samples.

Results

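The 48 genes described here build and copy DNA or carry a cell through mitosis. They were chosen by name, 22 for replication (S phase) and 26 for mitosis, out of 34745 genes in the table, and all 48 were found by symbol. RNA of gastrocnemius, the large calf muscle, was sequenced from C57BL/6 mice at 8 weeks of age. One group is the genotype Cry2flox/flox (called Cry2flox), in which Cry2, a circadian transcriptional repressor, carries a floxed allele, and the other is labelled Cry2scko, a term that the labels do not spell out. Each group is 1 library, the labels do not say whether it holds 1 animal or several, and they name no recombinase, no injury and no hour of collection. The title of the series concerns satellite cells, the muscle stem cells, and their proliferation.

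Dividing cells switch these genes on in an ordered wave. The E2F transcription factors drive genes that load and fire replication origins, supply nucleotides and copy DNA. Later the MuvB complex with B-Myb (Mybl2) and FoxM1 drives the cyclins, kinases, centromere proteins and motors of mitosis, often through promoters that carry a CHR element and CCAAT boxes. Muscle fibres have left the cell cycle and satellite cells of uninjured adult muscle are mostly quiescent, so RNA of most of these genes is known to be scarce in whole muscle.

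The libraries held 18909433 (Cry2flox) and 16423884 (Cry2scko) counted reads. Counts are given raw or as CPM, which are counts relative to library size after scaling by TMM factors. Ratios are Cry2scko over Cry2flox, and the 95% interval of a ratio is an exact counting interval. There are no replicates, so no test across animals was possible and no p-value is given. All intervals cover counting error only, and reads copied by PCR and not marked by molecular identifiers need not stand for separate molecules. Reads of Cry2 itself numbered 676 (Cry2flox) and 133 (Cry2scko), with a log2 ratio of -2.16 (95% interval -2.44 to -1.89). The 5 muscle fibre markers Acta1, Ckm, Myh4, Tnnt3 and Mylpf summed to 117250 and 111707 CPM, with 0 of 5 past the 2-fold rule described below.

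The promoters of these genes show the division into replication and mitosis programmes in their letters. RefSeq promoter windows (GRCm38.p6, 250 bases before to 50 after the start) were matched for 39 of the 48 genes. The CHR letters TTTGAA, on either strand, were in 14 of 20 mitosis genes (70%) and in 3 of 19 replication genes (15.8%), against 20.2% of 27025 genes in the promoter table and 14.0% of the 9825 with a mean CPM of at least 1. An E2F site, searched on both strands as TTTCCCGC, TTTCGCGC, TTTGGCGC or TTTGCCGC, was in 8 of 19 replication genes (42.1%) and 1 of 20 mitosis genes (5%), against 2.61% of the promoter table and 4.54% of the genes with a mean CPM of at least 1. The letters CCAAT were in 85% of mitosis and 57.9% of replication genes, against 41.1% and 42.6%. CHR and CCAAT stood together in 14 of 20 mitosis genes, against 7.97% and 5.59%. None of these motifs shares bases with another in the windows printed here. A match describes the letters and is not evidence that a factor binds.

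The windows below belong to the genes on which the comparison of the libraries turns. They are the 5 genes past the 2-fold rule, the kinase Plk1, and Mcm3, the replication helicase gene with the highest ratio. Capitals mark CHR, CCAAT and E2F letters, as read on the strand of the gene from 5′ to 3′.
Prc1 (chr7:80294201-80294500, plus strand): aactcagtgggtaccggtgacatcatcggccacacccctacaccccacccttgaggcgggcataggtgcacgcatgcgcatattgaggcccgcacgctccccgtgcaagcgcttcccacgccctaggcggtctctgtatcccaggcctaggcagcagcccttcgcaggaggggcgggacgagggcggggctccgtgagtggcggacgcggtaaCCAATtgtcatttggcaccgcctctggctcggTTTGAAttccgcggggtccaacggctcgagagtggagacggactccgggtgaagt
Kif11 (chr19:37376132-37376431, plus strand): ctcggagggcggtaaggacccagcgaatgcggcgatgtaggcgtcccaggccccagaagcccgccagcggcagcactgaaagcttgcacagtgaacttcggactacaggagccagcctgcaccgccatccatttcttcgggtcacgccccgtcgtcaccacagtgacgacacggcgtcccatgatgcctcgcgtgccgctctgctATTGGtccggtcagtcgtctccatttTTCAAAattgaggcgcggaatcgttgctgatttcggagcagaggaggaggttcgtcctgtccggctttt
Cenpf (chr1:189688037-189688336, minus strand): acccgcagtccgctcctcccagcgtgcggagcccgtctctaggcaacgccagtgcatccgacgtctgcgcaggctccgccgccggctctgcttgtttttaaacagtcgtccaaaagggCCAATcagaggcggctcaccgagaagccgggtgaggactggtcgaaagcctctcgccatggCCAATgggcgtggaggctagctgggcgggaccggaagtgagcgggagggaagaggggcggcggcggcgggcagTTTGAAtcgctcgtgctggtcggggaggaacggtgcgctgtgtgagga
Nusap1 (chr2:119618048-119618347, plus strand): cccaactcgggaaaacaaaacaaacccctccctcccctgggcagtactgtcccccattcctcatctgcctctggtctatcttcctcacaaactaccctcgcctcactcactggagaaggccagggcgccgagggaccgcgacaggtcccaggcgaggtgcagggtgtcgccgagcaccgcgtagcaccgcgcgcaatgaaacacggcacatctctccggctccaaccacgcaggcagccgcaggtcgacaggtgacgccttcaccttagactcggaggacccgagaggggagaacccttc
Bub1b (chr2:118597961-118598260, plus strand): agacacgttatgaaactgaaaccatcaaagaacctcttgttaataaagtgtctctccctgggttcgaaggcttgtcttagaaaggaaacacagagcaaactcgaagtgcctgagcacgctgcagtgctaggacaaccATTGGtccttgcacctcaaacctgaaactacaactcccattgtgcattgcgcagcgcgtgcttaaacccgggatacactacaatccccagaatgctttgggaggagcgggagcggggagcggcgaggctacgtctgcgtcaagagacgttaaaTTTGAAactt
Plk1 (chr7:122159185-122159484, plus strand): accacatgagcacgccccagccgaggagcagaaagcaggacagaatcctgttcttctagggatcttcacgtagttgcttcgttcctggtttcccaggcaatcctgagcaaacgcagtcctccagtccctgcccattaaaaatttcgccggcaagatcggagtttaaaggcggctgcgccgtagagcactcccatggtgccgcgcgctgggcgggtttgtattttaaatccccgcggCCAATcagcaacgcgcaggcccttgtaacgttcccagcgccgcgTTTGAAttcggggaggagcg
Mcm3 (chr1:20820263-20820562, minus strand): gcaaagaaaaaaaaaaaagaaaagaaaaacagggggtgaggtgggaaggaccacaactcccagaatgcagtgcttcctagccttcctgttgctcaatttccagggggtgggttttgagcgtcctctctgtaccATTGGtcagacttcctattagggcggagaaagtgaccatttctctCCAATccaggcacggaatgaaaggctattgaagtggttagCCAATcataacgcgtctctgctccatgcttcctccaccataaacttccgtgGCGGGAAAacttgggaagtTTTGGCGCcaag

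Prc1, Kif11, Cenpf, Bub1b and Plk1 each hold a CHR and a CCAAT match. Mcm3 holds a pair of E2F matches on opposite strands and also CCAAT matches, but no CHR. Nusap1 holds none of the searched letters in this window. Bub1b, the gene called higher, and 3 of the 4 called lower thus hold the same pair of motifs.

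As whole programmes, replication and mitosis genes were close to equal in the libraries. The 22 replication genes held 1952 reads in Cry2flox (exact Poisson 95% interval 1866 to 2041) and 1816 in Cry2scko (1733 to 1901), or 104 and 110 CPM, so that their summed level was 1.06-fold (0.990 to 1.13) in Cry2scko. The 26 mitosis genes held 776 reads (722 to 833) and 664 reads (614 to 716), or 41.3 and 40.1 CPM, a ratio of 0.971 (0.875 to 1.08). Both intervals lie well inside a 2-fold difference. Rrm1 alone gave 27.5% of the replication reads. Without it the summed log2 ratio was 0.13 (0.02 to 0.24), and leaving out Pcna (0.11), Ccne2 (0.12) or Rfc4 (0.10) also moved the lower bound above 0. In a bulk sample the number of dividing cells and the RNA per dividing cell cannot be told apart.

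**Figure D1:**
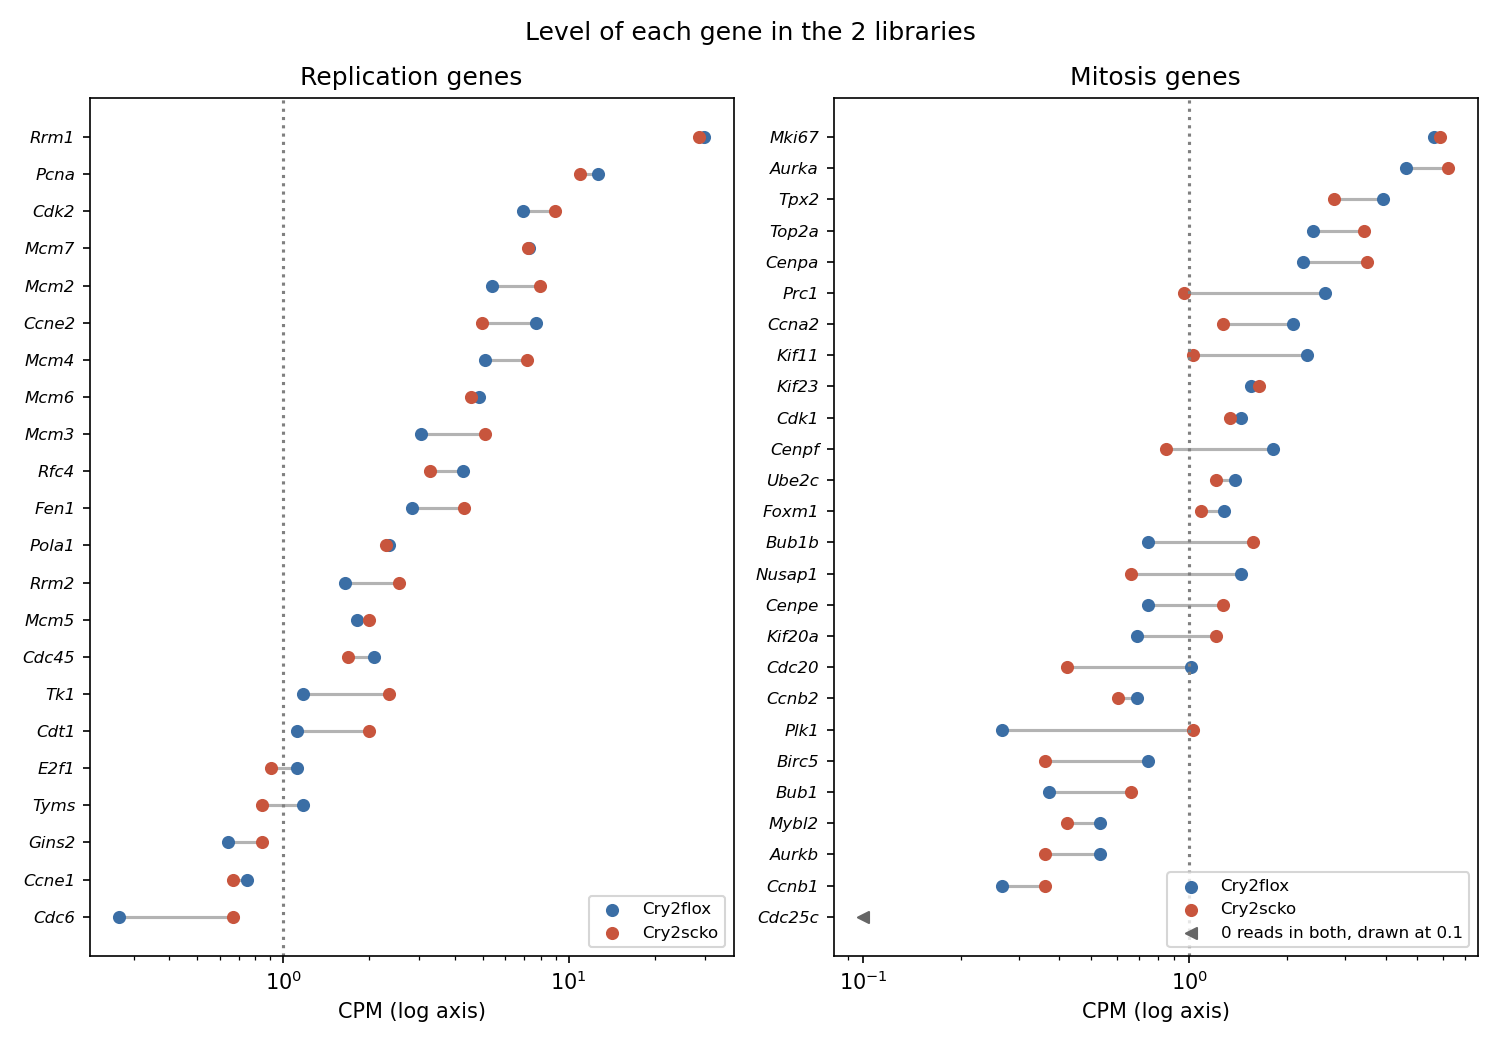
Level of each of the 48 genes in CPM (log axis) in the Cry2flox (blue) and Cry2scko (red) libraries, with 1 point per library and the replication genes on the left. Rrm1 stands highest at 29.9 and 28.7 CPM, Mki67 is the highest mitosis gene at 5.65 and 5.86 CPM, and Cdc25c had 0 reads in both.

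A gene was compared where its mean CPM was at least 1, and it was called higher or lower where the libraries differed by 2-fold or more and the interval excluded 1. A level of 1 CPM equals 18.8 reads (Cry2flox) or 16.5 reads (Cry2scko). Of the 48 genes, 35 passed this filter, 19 for replication and 16 for mitosis. Of these 35, 1 was called higher and 4 lower, together 14.3%, against 4.88% of all 12832 genes tested (3.37% higher and 1.51% lower). All 5 had a mean CPM from 1 to under 2, where 5 of 17 of these genes and 16.0% of all 1212 genes of that depth (10.6% higher, 5.36% lower) passed the rule. That depth split was chosen after the values were seen. From a mean CPM of 2 up to 30, 0 of 18 passed it, against 4.66% of 8105 genes (3.28% higher, 1.38% lower). With 5 reads added to each count, Prc1 was the only 1 of the 5 still called, and with the FPKM of the authors plus 0.1, 0 of the 5 were. Both additions pull ratios of low genes towards 1, and the FPKM match the same counts, so neither is an independent check.

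The median log2 ratio of the 35 genes was -0.03, beside -0.0027 over all genes tested. For replication it was -0.01 with 9 ratios above and 10 below 1, and for mitosis -0.15 with 7 above and 9 below. Within 1.5-fold lay 21 of the 35 (60%), against 87.2% of all genes tested. The number with an interval that excluded 1 was 15 of the 35 (42.9%), against 33.5% of all genes tested. With DESeq2 size factors it was 13 of the 35 (37.1%) against 33.7%, since the intervals of Cdt1 and Aurka then included 1. The 35 genes had a median mean CPM of 2.10, and 9 of them reached 5. The shares of all genes in this paragraph span all depths and were not matched to the depth of the 35. They therefore cannot show that these genes vary more than others.

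**Figure D2:**
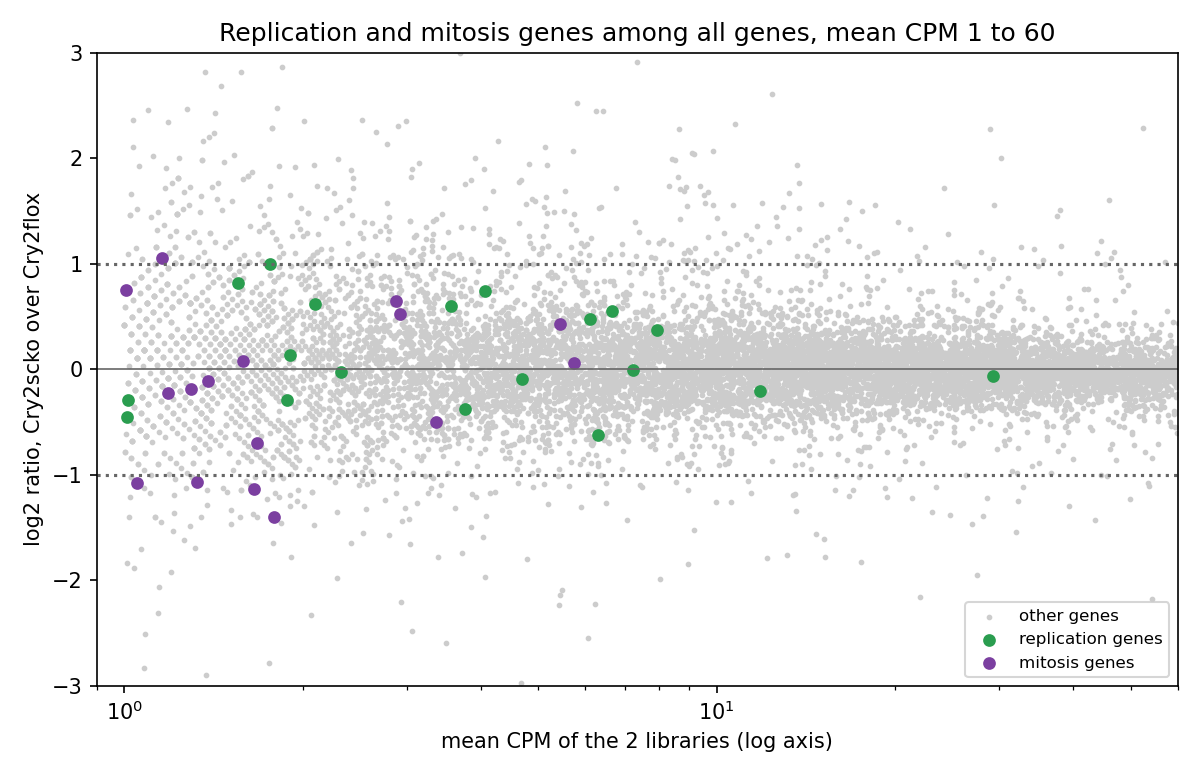
Log2 ratio of Cry2scko over Cry2flox against the mean CPM of the libraries (log axis), 1 point per gene, with replication genes in green, mitosis genes in purple and other genes in grey. Dotted lines mark 2-fold, the axes end at 60 CPM and at log2 ratios of -3 and 3 with 1730 genes outside them, and all points past 2-fold among the coloured genes lie under 2 CPM.

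Among replication genes, those of the MCM helicase were higher as a sum. The MCM2 to MCM7 proteins form the ring that is loaded at origins and unwinds DNA at the fork. Their genes together held 515 reads in Cry2flox and 560 in Cry2scko, a ratio of 1.23 (1.09 to 1.39), and leaving out any 1 of the 6 genes kept the summed log2 ratio between 0.23 and 0.40 with its interval above 0. This role group was set with earlier results of these data known, so its sum and leave-out values are a description. None of the 6 passed the 2-fold rule. Mcm3 had 57 and 84 reads, a log2 ratio of 0.74 (0.24 to 1.25), Mcm2 had 101 and 131 reads (0.56, 0.17 to 0.95) and Mcm4 had 96 and 118 reads (0.48, 0.08 to 0.88). These 3 were higher in Cry2scko by less than 2-fold with intervals above a ratio of 1.

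The remaining MCM genes did not differ beyond counting error. Mcm5 had 34 and 33 reads (0.14, -0.60 to 0.87), Mcm6 had 91 and 75 (-0.09, -0.56 to 0.36) and Mcm7 had 136 and 119 (-0.01, -0.38 to 0.36). Mcm7 shares exon bases with Cops6 and Ap4m1 on the opposite strand. Per length, in the FPKM values of the authors, the 6 levels ran in Cry2flox from 0.450 for Mcm3 to 1.41 for Mcm4, and in Cry2scko from 0.587 for Mcm5 to 2.00 for Mcm4.

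Licensing and firing factors sit before the helicase. Cdt1, which helps load the MCM ring, had 21 reads in Cry2flox and 33 in Cry2scko (log2 ratio 0.82, 0.0028 to 1.70), and Cdc6, its partner in loading, had 5 and 11 reads (1.25, -0.32 to 3.20) and was under the filter. Cdc45 and Gins2 belong to the complex that turns the loaded ring into an active helicase. Cdc45 had 39 and 28 reads (-0.29, -1.05 to 0.44), and Gins2 had 12 and 14 reads, under the filter. Together these 4 genes held 77 and 86 reads, a summed log2 ratio of 0.34 (-0.12 to 0.81) that counting error cannot separate from equality.

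Fork enzymes gave no common direction. Pcna, the sliding clamp, had 238 reads in Cry2flox and 182 in Cry2scko (-0.20, -0.49 to 0.08). Its processed copy Pcna-ps2, which is 99.2% identical over 781 bases, had 136 and 109 reads, and the reads of the gene and its copy together gave -0.18 (-0.40 to 0.05). Fen1, the flap endonuclease that trims Okazaki fragments, had 53 and 71 reads (0.60, 0.07 to 1.15), Rfc4 of the clamp loader 80 and 54 (-0.38, -0.91 to 0.13) and Pola1, the catalytic subunit of the primase polymerase, 44 and 38 (-0.03, -0.69 to 0.63). Fen1 was the only gene of the 4 with an interval clear of 1. It shares exon bases with Tmem258 on the opposite strand (240 and 295 reads), and Rfc4 shares them with Eif4a2 (3415 and 3031 reads). In all, 18 of the 48 genes share exon bases with another gene. Opposite-strand partners also overlap Cdc45 (Ufd1, 464 and 322 reads), Gins2 (Gse1, 500 and 428) and Ccna2 (Exosc9, 273 and 183). The same holds for Cdc20 (Elovl1, 150 and 104 reads) and Kif20a (Cdc23, 406 and 376). The strand setting of the counting is not given in the sources used here, so reads of such partners cannot be told apart. Ccnb1, Cdc6, Mcm7, Mybl2, Rrm2 and Tyms also have near-identical copies in the genome, so their counts are uncertain. Tyms in addition holds a repeat found in other genes.

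Nucleotide supply was led by Rrm1, the large subunit of ribonucleotide reductase, the most abundant of the 48 genes by CPM. Rrm1 had 561 reads in Cry2flox and 474 in Cry2scko, 29.9 and 28.7 CPM, a log2 ratio of -0.06 (-0.24 to 0.12). Its S-phase partner Rrm2 had 31 and 42 reads (0.62, -0.08 to 1.34). Rrm2b, the partner subunit that also serves cells outside S phase, is not among the 48 and was looked up after the values of Rrm1 were seen. It had 539 and 468 reads, and per length it stood at 3.92 FPKM in both libraries, against 0.441 and 0.688 FPKM for Rrm2 and 7.42 and 7.22 FPKM for Rrm1. In both libraries the level of Rrm2b per length was thus above that of Rrm2, an order that rests on the gene lengths behind the FPKM.

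Of the thymidine enzymes, Tk1 had an interval above a ratio of 1 and Tyms did not differ beyond counting error. Tk1, the cytosolic thymidine kinase of S phase, had 22 reads in Cry2flox and 39 in Cry2scko (log2 ratio 0.995, 0.22 to 1.83), just under the 2-fold rule. Afmid, on the opposite strand and sharing exon bases with Tk1, had 26 and 69 reads. Tyms, thymidylate synthase, had 22 and 14 reads (-0.45, -1.55 to 0.56), a difference that was not detectable at this depth.

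Among the S-phase cyclins and their kinase, Ccne2 was lower and Cdk2 higher, each by less than 2-fold. Ccne2, a cyclin of the entry into S phase, had 144 reads in Cry2flox and 82 in Cry2scko (log2 ratio -0.63, -1.04 to -0.23). It was the only tested replication gene whose interval lay below a ratio of 1, while 7 of the 19 lay above it (6 with DESeq2 size factors). Over all 12832 genes tested, 2087 intervals lay above 1 and 2217 below it. Cdk2, the kinase of Ccne2, had 130 and 148 reads (0.37, 0.02 to 0.72). Ccne1 had 14 and 11 reads, under the filter. E2f1, the transcription factor of this programme, had 21 and 15 reads (-0.29, -1.36 to 0.72). Ccne2 shares exon bases with Ints8 (270 and 262 reads) and Cdk2 with Pmel (4 and 0 reads), both on the opposite strand.

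**Figure D3:**
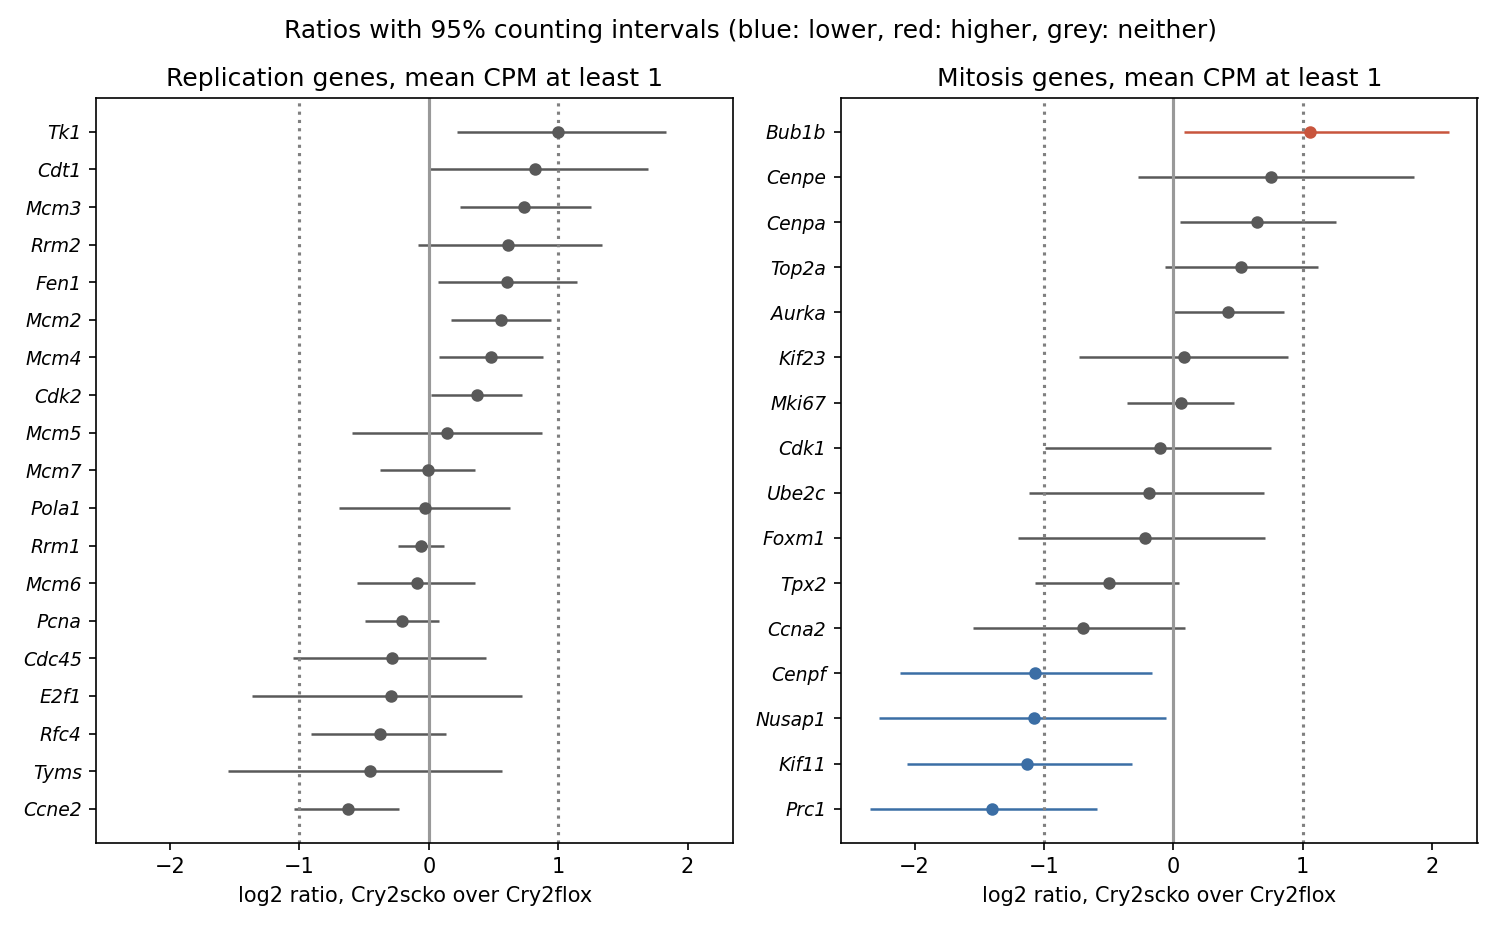
Log2 ratio of Cry2scko over Cry2flox with 95% counting intervals for the 35 genes with a mean CPM of at least 1, replication on the left and mitosis on the right. Blue marks the 4 genes called lower (Cenpf, Nusap1, Kif11 and Prc1), red the 1 called higher (Bub1b) and grey the other 30, and dotted lines mark 2-fold.

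Within mitosis, the group of spindle and midzone genes was lower as a sum in Cry2scko, and kinase and checkpoint genes were higher as a sum. The spindle and midzone genes Kif11, Kif20a, Kif23, Nusap1, Tpx2 and Prc1 held 235 reads in Cry2flox and 137 in Cry2scko, a summed ratio of 0.662 (0.532 to 0.821). Among them the motors Kif20a and Kif23 had ratios above 1, and the others had ratios below 1. The kinase and checkpoint genes Plk1, Aurka, Aurkb, Birc5, Bub1 and Bub1b held 137 and 169 reads, a ratio of 1.40 (1.11 to 1.77). Leaving out any 1 gene kept the spindle log2 ratio between -0.74 and -0.44 and the kinase log2 ratio between 0.39 and 0.59. Each interval stayed on its own side of 0. The role groups were set with earlier results of these data known. Their sums and leave-out values thus describe these reads and are not independent support for a difference. Of the 5 spindle genes tested 3 were called lower, and of the 2 kinase and checkpoint genes tested 1 was called higher, with Aurka giving 62.1% of the reads of that group. Over all genes tested 1.51% were called lower and 3.37% higher, and 5.36% and 10.6% at the mean CPM from 1 to under 2 where these calls lie. Of 12 role groups, these 2 and the MCM genes had an interval that excluded 1. The difference between the spindle and kinase groups was itself not tested. Beside the higher MCM and kinase sums, the summed log2 ratio of B cell markers was 1.42 (1.32 to 1.53) and that of T cell markers 0.99 (0.79 to 1.19), and their part in these sums was not tested.

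Prc1, a microtubule bundling protein of the spindle midzone (ENSMUSG00000038943, GRCm38 chromosome 7, 80294450 to 80316259, plus strand), had 49 reads in Cry2flox and 16 in Cry2scko, 2.61 and 0.967 CPM. It was 2.64-fold lower, a log2 ratio of -1.40 (-2.35 to -0.59). Rccd1, which shares exon bases with Prc1 on the opposite strand, had 135 and 102 reads. Kif11, the motor that pushes spindle poles apart (ENSMUSG00000012443, chromosome 19, 37376403 to 37421859, plus strand), had 43 and 17 reads, 2.29 and 1.03 CPM, a log2 ratio of -1.13 (-2.06 to -0.32). Nusap1, a microtubule-binding protein of the spindle (ENSMUSG00000027306, chromosome 2, 119618298 to 119651244, plus strand), had 27 and 11 reads (-1.07, -2.27 to -0.05). Its partner on the opposite strand, Oip5, had 3 and 4 reads.

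The other spindle genes were not called. Tpx2, which activates Aurora A on the spindle, had 74 reads in Cry2flox and 46 in Cry2scko (-0.50, -1.07 to 0.05). The midzone motor Kif23 had 29 and 27 reads (0.08, -0.73 to 0.89). The motor Kif20a had 13 and 20 reads, under the filter, with a log2 ratio of 0.79 (-0.27 to 1.93).

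Centromere proteins did not move as 1 group. Cenpf, a large kinetochore-associated protein (ENSMUSG00000026605, chromosome 1, 189640606 to 189688086, minus strand), had 34 reads in Cry2flox and 14 in Cry2scko, 1.81 and 0.846 CPM, and was 2.10-fold lower at -1.07 (-2.11 to -0.16). Cenpa, the histone variant of centromeres, had 42 and 58 reads (0.64, 0.05 to 1.26), and the kinetochore motor Cenpe had 14 and 21 (0.75, -0.28 to 1.86). Cenpa was thus higher by less than 2-fold and Cenpe did not differ beyond counting error.

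Bub1b, which encodes the spindle checkpoint protein BubR1 (ENSMUSG00000040084, chromosome 2, 118598211 to 118641591, plus strand), was the only gene of the 48 called higher. Its reads numbered 14 (Cry2flox) and 26 (Cry2scko), or 0.746 and 1.57 CPM, a 2.07-fold ratio with a log2 value of 1.05 (0.09 to 2.13). Bub1, a kinase of the same checkpoint, had 7 and 11 reads, under the filter (0.80, -0.66 to 2.44). Plk1, the polo-like kinase of mitotic entry (ENSMUSG00000030867, chromosome 7, 122159439 to 122169873, plus strand), had 5 and 17 reads, 0.266 and 1.03 CPM, at 1.85 (0.45 to 3.74). Plk1 was the only 1 of the 13 genes under the filter whose interval excluded 1, against 9.74% of the 5739 genes with reads under it.

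The Aurora kinases differed in depth. Aurka, which acts at spindle poles, had 87 reads in Cry2flox and 103 in Cry2scko (0.43, 0.00081 to 0.86). Aurkb and Birc5, which work together in the chromosomal passenger complex, had 10 and 6 reads and 14 and 6 reads, both under the filter and with intervals that included 1.

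Mki67, Top2a and Cdk1, which are among the markers used for dividing cells, did not differ beyond counting error. Mki67, a coat of mitotic chromosomes, had 106 reads in Cry2flox and 97 in Cry2scko (0.06, -0.36 to 0.47), so a 2-fold difference lies outside its interval. Top2a, the topoisomerase that untangles sister chromatids, had 45 and 57 reads (0.52, -0.07 to 1.12). Cdk1, the mitotic kinase, had 27 and 22 reads (-0.11, -0.99 to 0.75). For Top2a and Cdk1 the intervals include 1 and reach 2-fold or close to it.

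Mitotic cyclins and regulators of their destruction were too low to separate. Ccna2 had 39 and 21 reads (-0.69, -1.55 to 0.09), Ccnb1 had 5 and 6, and Ccnb2 had 13 and 10. Cdc25c, the phosphatase that activates Cdk1, had 0 reads in both libraries, and at 3 reads the limit that a count of 0 allows is 0.160 CPM (Cry2flox) or 0.181 CPM (Cry2scko). Of the genes of the anaphase-promoting complex, Cdc20, its activator, had 19 and 7 reads (-1.20, -2.75 to 0.06), and Ube2c, its ubiquitin-conjugating enzyme, had 26 and 20 (-0.19, -1.11 to 0.70). Ube2c shares exon bases on the opposite strand with Tnnc2, a fast troponin gene with 177238 and 156625 reads. The transcription factors Foxm1 and Mybl2 had 24 and 18 reads and 10 and 7 reads, with intervals that included 1.

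**Figure D4:**
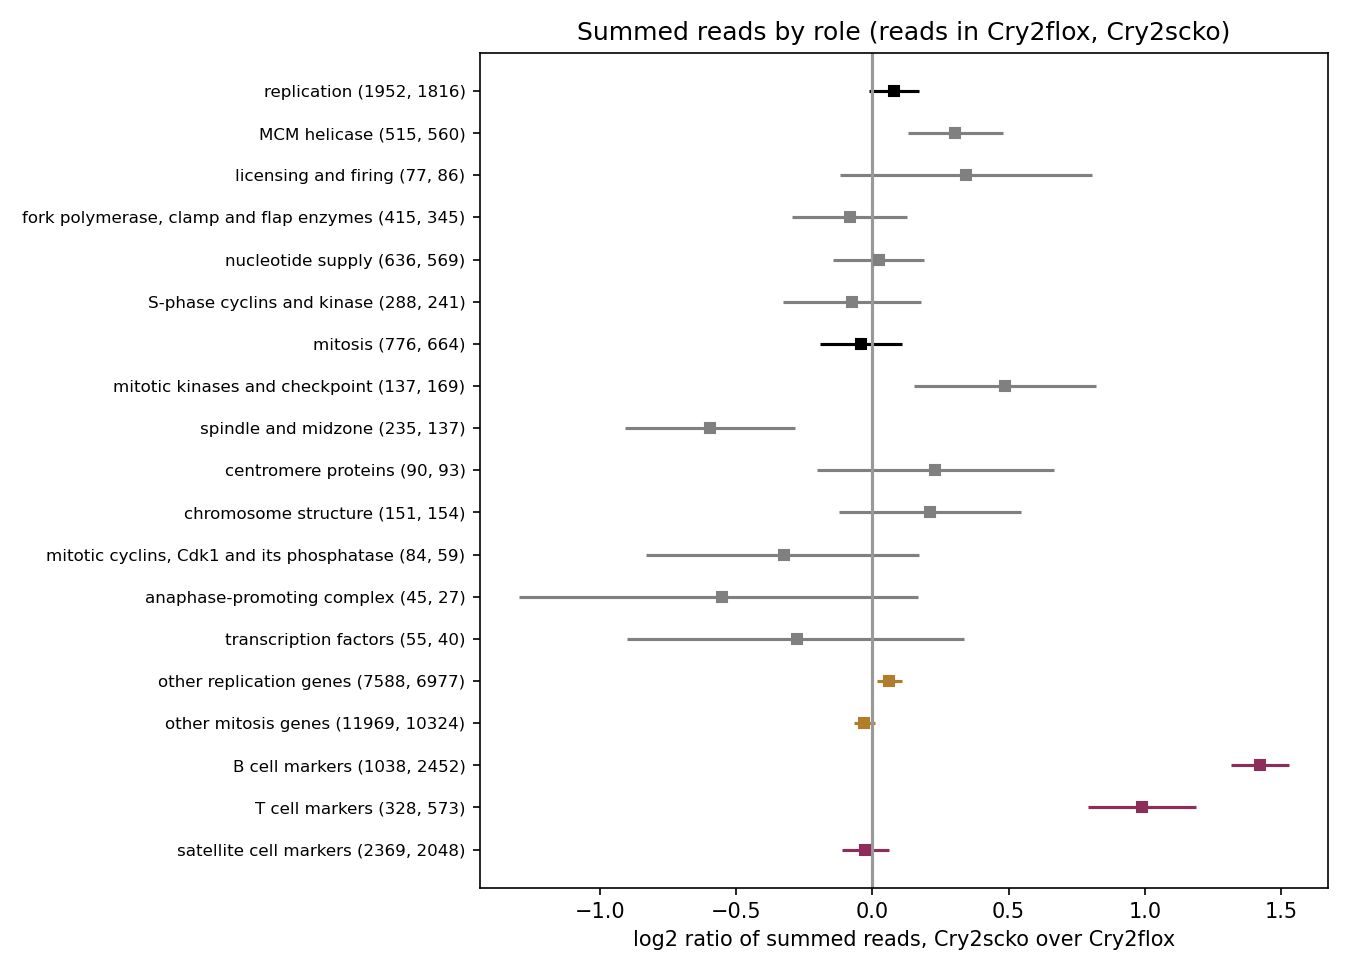
Log2 ratio of summed reads, Cry2scko over Cry2flox, with 95% counting intervals, for all replication and all mitosis genes (black), 12 role groups (grey), other replication and mitosis genes (ochre) and B cell, T cell and satellite cell markers (purple). The raw reads summed in Cry2flox and Cry2scko stand in parentheses, and the MCM and kinase groups lie above 0, the spindle group below it.

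In the other lists of cell cycle genes 0 or 1 gene was called, against 4.88% of all genes tested, and nothing particular to these lists is read from such counts. Of 58 other replication genes 48 were tested, with 1 called higher, 0 lower and a median log2 ratio of 0.09. The 1 gene was the helicase Blm, with 33 and 59 reads at 1.01 (0.38 to 1.68). Of 56 other mitosis genes 29 were tested and 0 passed the rule, with a median of -0.07 and with Tubb4b (-0.15) and Anp32e (-0.12) as the most abundant. Among 21 E2F, DREAM and MuvB factors and NF-Y subunits, 18 were tested and 1 was called higher, the proto-oncogene Myb, which is also expressed in immature blood cells, with 14 and 30 reads at 1.26 (0.32 to 2.31). Of inhibitors and pocket proteins 0 of 18 were called (median 0.11), with Ccng1 at -0.09 and Btg2 at -0.89. Of G1 cyclins and kinases 0 of 9 were called (median -0.08), with Ccnd3 at -0.12 and Ccnd2 at -0.01. Ccnd1, named after its values were seen, had 508 and 309 reads at -0.53 (-0.74 to -0.33), the only 1 of the 9 with an interval that excluded 1, and the list summed to a ratio of 0.909 (0.860 to 0.962).

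Markers of cell types that could hold dividing cells were read from the same fit. Over all genes tested, 3.37% were called higher and 1.51% lower. All 8 B cell markers were called higher, with sums of 55.3 CPM in Cry2flox and 148 CPM in Cry2scko. Of 8 T cell markers 5 were called higher, with sums of 17.5 and 34.6 CPM. Of 6 germinal centre B cell markers 2 were tested and 0 called, with sums of 129 and 87.5 CPM of which Bcl6 gave 97.1%, while Rgs13 had 0 reads in both libraries and Mef2b 1 and 2. Of 6 plasma cell markers 5 were tested and 0 called, with sums of 57.7 and 56.7 CPM of which Xbp1 gave 83.3%. Of 6 neutrophil markers 1 was tested and called higher, S100a9 on 9 and 33 reads, with sums of 0.852 and 3.57 CPM and Ly6g at 0. S100a9 has a mean CPM from 1 to under 2, where 10.6% of all genes were called higher. Of 6 erythroid precursor markers 2 were tested and 0 called, with sums of 250 and 217 CPM of which Tfrc gave 99.3%, while Gata1 and Klf1 had 0 reads in both. The part of these cells in the ratios of replication and mitosis genes was not tested.

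Satellite cell markers summed to 126 and 124 CPM, of which Itga7 gave 57.9%, so the sum says little about the other markers. Of the 10 markers, 0 were called higher and 1 lower, the calcitonin receptor Calcr. Over all genes tested the shares were 3.37% higher and 1.51% lower. Calcr had 36 and 14 reads, at a depth where 5.36% of all genes were called lower. Pax7, the satellite cell transcription factor in the title of the series, had 76 and 44 reads, a log2 ratio of -0.60 (-1.18 to -0.05). In each of the endothelial, macrophage and fibro-adipogenic progenitor lists 0 of 6 markers were called, with sums of 489 and 480 CPM, 51.4 and 46.7 CPM, and 210 and 174 CPM.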

How the data were processed

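Reads of 2 total RNA libraries were counted per Ensembl gene. CASAVA, HISAT2 2.0.4, StringTie 1.3.0 and the build GRCm38 are named in the submitters' processing notes; the read counter, annotation release and strand setting are not given in the sources used here. The authors deposited raw counts for both libraries and FPKM values in 1 file per library, per the file headers. Of 16284 genes read in both libraries, 100% had counts and FPKM that implied 1 gene length within 0.1 percent.

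Names and positions came from GENCODE M21. Counts were scaled by TMM factors (edgeR 4.0.16, R 4.3.3) of 0.993 for Cry2flox and 1.01 for Cry2scko. Log2 ratios of single genes used counts with 0.5 reads added, and sums used counts as they are. For the 95% interval, exact Clopper-Pearson bounds on the fraction of a gene's reads that came from Cry2scko were converted to a ratio. A call needed a mean CPM of at least 1, a 2-fold ratio and an interval without 1. BLAST 2.17.0 searched for near-identical copies (at least 95% identity over 300 bases). Python 3.11.15, numpy 2.4.6, scipy 1.17.1, pandas 2.3.3 and matplotlib 3.10.9 were used, and the procedure was tested on simulated data.

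The genes and lists were chosen with earlier results of these data known, and the role groups were set with those results known. Named are all 48 genes, Cry2, Pax7, and of each other list the called genes (up to 4) or otherwise the 2 with the highest mean CPM; other names are said to be chosen after their values were seen or belong to marker lists or exon partners. Alternatives were other scalings (DESeq2 1.42.0 size factors, total counts, and total counts that omit mitochondrially encoded genes and the 20 most abundant ones), FPKM with 0.1 added, other filters, folds and added reads, and subsets of genes.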

Additional observations from a re-analysis of the deposited data

How the results depend on the processing

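Calls of single genes rest on few reads. With 1 library per genotype no library could be left out, and no paired analysis was possible because each group holds 1 library. With DESeq2 size factors all counts of calls and sums stayed on their side, while the intervals of Cdt1 and Aurka came to include 1. With total counts 2 of the 48 genes were called higher (Tk1 added), and without mitochondrially encoded and the 20 most abundant genes 3 were (Tk1 and Plk1 added). The replication sum then had log2 ratios of 0.10 and 0.11 with intervals above 0, and 0.13 without Rrm1, the gene with the most reads. With FPKM and 0.1 added, 0 of the 48 were called higher and 0 lower, and 116 of all genes lower instead of 194. An added 0.1 pulls ratios of genes with low FPKM towards 1. Without a filter 2 of the 48 were higher (Plk1 added), and of all genes 789 were higher and 396 lower. With a mean CPM of at least 5, 0 of the 48 were higher and 0 lower (9 remain to be tested), and 175 and 76 of all genes. With 5 reads added, 0 were higher and 1 lower (Prc1). A 1.5-fold threshold gave 6 higher and 5 lower of the 48 (Ccne2 added to the lower), in place of 1 and 4, and 842 higher and 558 lower of all genes. Without genes that share exon bases, an alternative chosen after the data were seen, 2 were lower (Kif11 and Cenpf). For the sums of MCM, spindle and kinase genes all 7 alternatives were added after the data were seen. Each kept its direction in all of them and its interval excluded 1 in the 5 that use counts; the 2 that use FPKM have no interval and gave the spindle genes -0.36 and -0.38. At 10 reads in each library the interval of a ratio reaches 3.04-fold.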

Other observations

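Gene models differ between the files and the annotation used here. The length implied by the counts and FPKM of the authors ran from 0.363 times (Rrm1) to 2.89 times (Fen1) the merged exon length of GENCODE M21 among the 48 genes, with a median of 1.25. Orders of FPKM between genes depend on these lengths, while ratios of 1 gene between libraries do not.

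Among other cell cycle genes under the filter, chosen after their values were seen, Clspn, a replication checkpoint adaptor, had 3 reads in Cry2flox and 17 in Cry2scko (log2 ratio 2.51, 0.90 to 5.10). Pbk, a mitotic kinase, had 13 and 0 reads. Ect2, an exchange factor of cytokinesis, had 23 and 7 reads at -1.46, with an upper bound of -0.27. Of all 5739 genes with reads under the filter, 9.74% had an interval that excluded 1, so nothing particular is read from these genes.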
